A study of Rattus norvegicus with 4 samples.

Results

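The measurements concern 10 transcription factors that mark striatal spiny projection neurons or their subtypes: Ebf1, Foxp1, Foxp2, Bcl11b, Meis2, Rarb, Isl1, Sp9, Casz1 and Tshz1. They were taken by gene symbol, and each of the 10 symbols matched 1 of the 30560 genes counted. Spiny neurons are the GABAergic output cells of the striatum and accumbens, and they fall into a class with the dopamine receptor Drd1 and a class with Drd2. Transcription factors of this kind act in the embryonic lateral ganglionic eminence to set spiny neuron fate and to separate the classes, and many stay on in the adult neuron. Isl1 and Ebf1 are known from development of the Drd1 class, Sp9 from development of the Drd2 class, and Foxp1, Bcl11b (Ctip2), Meis2 and Rarb from spiny neurons of both classes.

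Nuclei were sorted from accumbens tissue of Sprague-Dawley rats, which were 90 to 120 days old, and the transcripts of single nuclei were counted by droplet sequencing with unique molecular identifiers (UMIs). Rats received intraperitoneal cocaine at 20 mg/kg or an equal volume of saline once a day for 7 days, and tissue was taken 1 h after the last injection. A 2 mm punch centred on the core was dissected, and 4 rats of the same sex and treatment were pooled into each of 4 libraries: saline female, saline male, cocaine female and cocaine male, 16 rats in all. Each treatment therefore has 2 libraries, 1 of each sex, and with 2 libraries against 2 an exact permutation test cannot go below a two-sided p of 0.333. The labels name no transgene or mutant allele in either treatment, and rats of both treatments were put in an open field after injection. P-values of the cocaine and sex tests rest on the spread between these pools, evened out over genes. In the fits of Drd2-class nuclei and oligodendrocyte precursors that spread came from all genes together. A factor's own spread between pools had little or no weight there. In the other cocaine and sex fits the spread shared over genes also had most of the weight. It counted for 8.78 degrees of freedom in astrocytes, the fewest, and 83.6 in Drd1-class nuclei with Reln, against 1 from a factor's own pools. Comparisons of nucleus types were made within libraries. Their p-values rest on how types varied from library to library, evened out over genes, and the part shared over genes had the larger weight. The fit of the Drd1 and Drd2 classes also held the other neuron types tested, so its spread includes theirs.

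The 4 libraries held 26228 barcodes, of which 24843 were kept, with a median of 4363 to 5067 UMIs per nucleus. Pairs of libraries shared 10 to 18 barcodes. Neuron types were gated on marker UMIs, and none of the 10 factors was used. The D1 gate (2249 nuclei, 417 to 638 per library) required striatal projection markers (among them Ppp1r1b, Pde10a and Rgs9) and at least 80% of class-marker UMIs from Drd1, Tac1, Pdyn and Eya1, and the D2 gate (2704 nuclei) the same from Drd2, Adora2a, Penk or Gpr6. Drd1 was at 148 CPM (UMIs of the gene in the summed nuclei, scaled to the library total of the gate) in D1 and 3.22 CPM in D2 nuclei, and Drd2 at 0.744 and 838 CPM. Eya1 was near absent from D1 nuclei at 1.98 CPM, so that gate rested on the other 3 markers. A gate on Grm8 and Chst9 (921 nuclei) held a type with lower striatal projection markers. Gates for Sst/Npy (164), Pthlh/Kit (151), Klhl1/Htr7 (487), cholinergic (73) and glutamatergic neurons (166) followed. D1 nuclei of the saline female library were the deepest, with a median of 10840 UMIs against 7458 in the shallowest, and 6848 neurons passed no gate.

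The factors split into a set shared by both classes and a set that separated them. Rarb, Meis2 and Bcl11b did not pass the test between D1 and D2 nuclei, whereas Isl1, Ebf1, Foxp2, Tshz1 and Casz1 were higher in D1 and Foxp1 was higher in D2. The differences of Tshz1 and Casz1 depended on how the D1 and D2 nuclei were drawn, as described below. Of the 9 factors with enough counts, 6 passed the test between the gates, 5 higher and 1 lower in D1, where 10.3% of the 11266 genes tested passed. The median log2 difference over all genes was 0.00. Sp9 had too few counts to be tested.

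**Figure D1:**
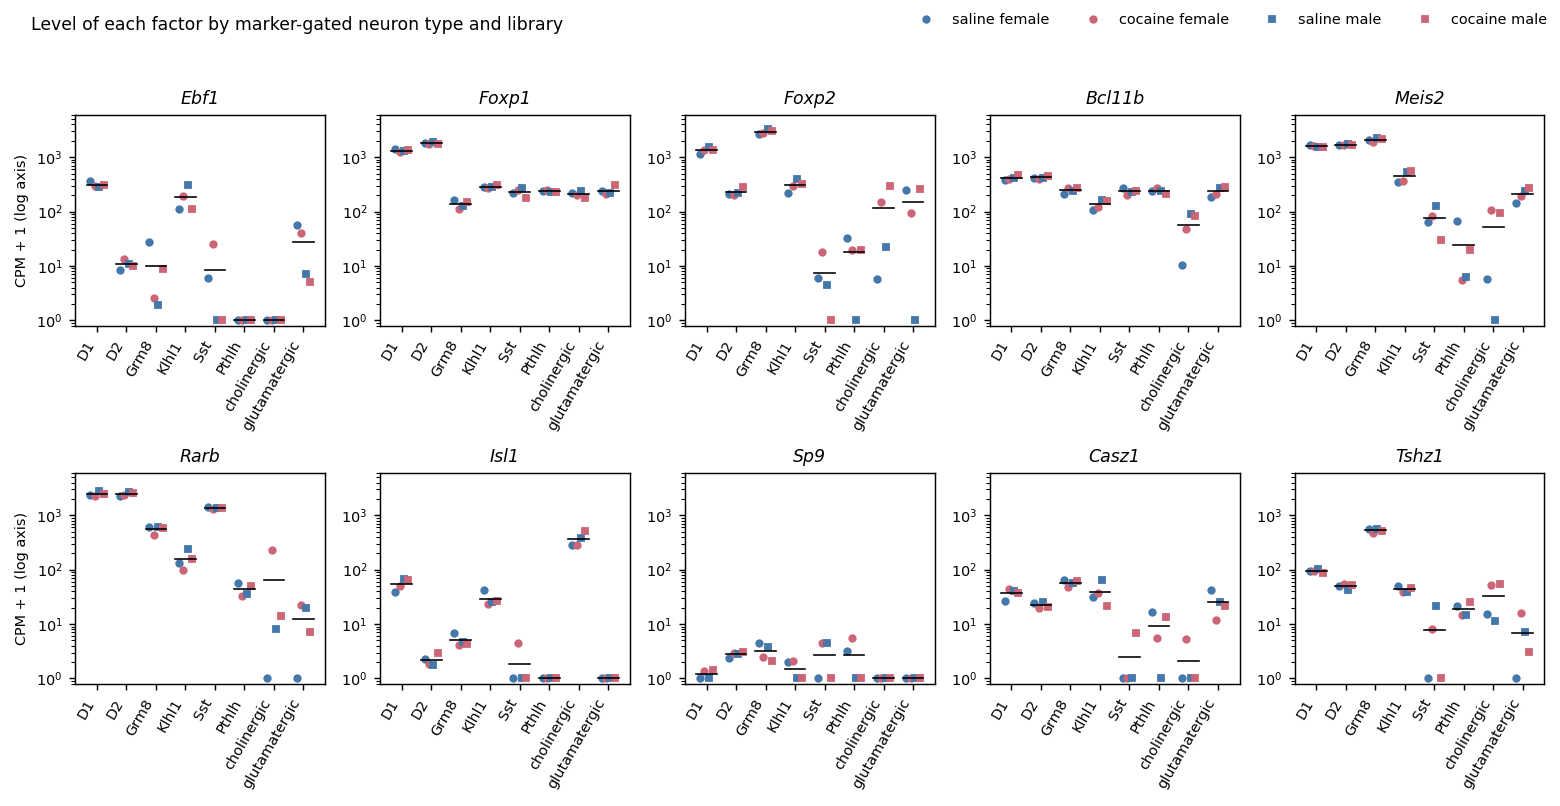
Level of each factor (CPM + 1, log axis) in 8 marker-gated neuron types. Points are the 4 libraries (circles female, squares male, blue saline, red cocaine) and lines their mean. Rarb, Meis2 and Bcl11b sit at similar heights in D1 and D2, Ebf1 and Isl1 sit apart in D1, and Foxp2 and Tshz1 are highest in the Grm8 type.

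Rarb encodes retinoic acid receptor beta, which heterodimerises with retinoid X receptors and is known for its part in Drd1-class striatal development. In D1 nuclei it was at 2366, 2744, 2271 and 2502 CPM in the saline female, saline male, cocaine female and cocaine male libraries, and in D2 nuclei at 2301, 2703, 2319 and 2525 CPM. The saline male library was highest in both classes, and the log2 difference was -0.00 ± 0.0934 (SE; 95% interval -0.19 to 0.19; edgeR adjusted p = 0.999). Meis2, a TALE homeodomain factor, was at 1592 ± 48.5 CPM in D1 and 1688 ± 45.9 CPM in D2 (SD, n = 4 libraries). The lowest D2 library stood at 1641 CPM and the highest D1 library at 1640 CPM, and the log2 difference of -0.09 (95% interval -0.28 to 0.11) did not pass the test (edgeR adjusted p = 0.749). Bcl11b, a zinc finger repressor needed for striatal projection neuron maturation, was at 409 ± 35.7 CPM in D1 and 422 ± 25.9 CPM in D2, with a log2 difference of -0.05 (95% interval -0.20 to 0.09). The interval reaching farthest from 0 among these 3 factors was that of Meis2.

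The promoter table of RefSeq (GRCr8) held 7 of the 10 factors, and 2 stretches are shown because they carry a binding motif of the factor's own family. The Rarb window contains the direct repeat of the retinoic acid response element, GTTCAC and again GTTCAC with 5 bases of any kind between them, starting 25 bases past its start site. The Foxp1 window contains the forkhead motif TGTTTAC, starting 164 bases before its start site. Both strands were searched, and motif letters are in capitals.
Rarb, chr15:11336411-11336439, plus strand: ggaaggGTTCACCGAAAGTTCACtcgcat
Foxp1, chr4:133353414-133353468, minus strand: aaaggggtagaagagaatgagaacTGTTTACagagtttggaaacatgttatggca
The retinoic acid element stood in 0.0109% of 27457 windows of the same length and the forkhead motif in 3.76%. No variation of the named letters was allowed, so these shares are those of the exact forms and not of all sites a receptor could bind. These matches describe the sequence and were not tied to binding. The EBF motif, TCCC and GGGA with 2 bases of any kind between them (0.841% of windows), the SP motif GGGCGG (34.9%) and the ISL motif TAATGG (8.41%) were in none of the 7 windows, and the MEIS motif TGACAG (18.8%) was in 1 of them, that of Tshz1.

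Foxp1, a forkhead repressor of both classes, was the 1 of the 9 tested factors that was higher in D2. Its level was 1858, 1880, 1736 and 1771 CPM in D2 and 1421, 1282, 1221 and 1329 CPM in D1, in the library order given for Rarb. No D1 library reached the lowest D2 library. The log2 difference of D1 against D2 was -0.47 ± 0.0739 (SE, edgeR adjusted p = 1.81e-05). At 4000 UMIs per nucleus, 92.1% of D1 and 98.8% of D2 nuclei had a Foxp1 UMI.

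Isl1, a LIM-homeodomain factor, separated D1 from D2 by the largest log2 difference of the 9 factors, 5.46 ± 0.212 (SE, edgeR adjusted p = 1.89e-19). Its D1 levels were low: 37.5 CPM in saline female, 66.1 in saline male, 50.2 in cocaine female and 64.2 in cocaine male nuclei, against 0.740 to 1.88 CPM in D2. A UMI was seen in 773 of 2249 D1 nuclei (34.4%), with a median of 1 among them and a highest count of 6, so a nucleus without a UMI cannot be called negative at this depth. The share in D2 was 0.777%, and in astrocytes, which were shallower (median 3069 against 8398 UMIs), it was 0.187%.

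Ebf1, an early B-cell factor of the COE family, differed from Isl1 in its spread over nuclei. D1 levels were 367, 284, 296 and 303 CPM in saline female, saline male, cocaine female and cocaine male, and D2 levels 7.27 to 12.6 CPM, a log2 difference of 5.00 ± 0.227 (SE, edgeR adjusted p = 1.2e-17). In D1, 1080 of 2249 nuclei (48.0%) had a UMI, the median of these was 4 UMIs, and 8.80% of the gate had 10 or more. In D2 43 of 2704 nuclei (1.59%) had any. With every nucleus thinned to 4000 UMIs, Ebf1 was seen in 42.1% ± 7.06 (SD, n = 4) of D1 nuclei, where Rarb, Meis2 and Foxp1 were seen in 99.0%, 97.8% and 92.1%. Astrocyte and oligodendrocyte gates gave 0.435% and 0.452% unthinned, at median depths of 3069 and 1737 UMIs.

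Foxp2, the forkhead paralog of Foxp1, had a log2 difference of 2.57 ± 0.0946 (SE, edgeR adjusted p = 5.03e-20). D1 levels were 1152, 1557, 1367 and 1354 CPM, and D2 levels 212, 222, 197 and 278 CPM, in the same library order. A minority of D2 nuclei carried it: 32.5% ± 5.12 at 4000 UMIs, against 86.9% ± 2.17 of D1 nuclei (SD, n = 4). Tshz1, a teashirt zinc finger factor, was at 84.2 to 101 CPM in D1 and 40.9 to 54.1 CPM in D2, a log2 difference of 0.92 ± 0.0933 (SE, edgeR adjusted p = 5.05e-09). Casz1, a castor zinc finger factor, was at 26.0 to 42.6 CPM in D1 and 21.6 ± 2.91 CPM (SD, n = 4) in D2, a log2 difference of 0.73 ± 0.131 (SE, edgeR adjusted p = 0.000132). These last 2 differences depended on how the D1 and D2 nuclei were drawn. In graph clusters made without the 10 genes, which redrew both classes, Casz1 was lower in D1 by a log2 difference of -3.30 (edgeR adjusted p = 3.13e-11) and Tshz1 did not pass at -0.031. In D1 nuclei outside the patch-marker gate described next, Casz1 stood at 22.9 ± 7.76 CPM, close to its D2 level.

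Sp9, a zinc finger factor of the Sp family, was barely detectable. Over all D2 nuclei there were 41 UMIs in 37 of 2704 nuclei (1.37%), over D1 nuclei 4 UMIs in 4 of 2249 (0.178%), and over the Grm8 type 12 UMIs in 12 of 921 (1.30%). Its D2 levels were 1.42, 1.85, 1.90 and 2.05 CPM and its D1 levels 0.00, 0.00, 0.37 and 0.42 CPM. None of 6683 oligodendrocyte, 1635 astrocyte or 943 precursor nuclei had a UMI. For precursors this allows a share of nuclei with an Sp9 UMI of up to 0.318%, at a median depth of 2848 UMIs against 7739.5 in D2, and it does not limit the share that expresses the gene.

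Within D1, subtypes drawn on other genes carried different combinations. Patch-marker nuclei (240, above a cut on Oprm1, Tll1, Kremen1 and Sema5b) were compared with the other 2009 D1 nuclei. Patch, or striosome, compartments are mu-opioid receptor-rich parts of the striatum. The gate was not limited to them by its markers alone. Markers of eccentric spiny neurons were also higher in it than in the other D1 nuclei. Otof was at 124 against 69.7 CPM, Cacng5 at 56.5 against 17.4 CPM and Col11a1 at 114 against 84.1 CPM. The part of such nuclei in the differences below was not tested. Of 9 factors tested, 7 passed, 4 higher (Casz1, Tshz1, Foxp2, Meis2) and 3 lower (Ebf1, Isl1, Foxp1), where 7.55% of 10687 genes passed. Casz1 had the largest difference, 151, 137, 197 and 130 CPM in patch-marker nuclei against 11.4, 28.4, 26.4 and 25.5 CPM in the others. Its log2 difference was 2.73 ± 0.163 (SE, edgeR adjusted p = 8.16e-13). Tshz1 was at 276 ± 46.6 against 72.8 ± 5.86 CPM (log2 difference 1.89), Foxp2 at 2197 ± 304 against 1266 ± 169 CPM (0.77) and Meis2 at 1937 ± 145 against 1554 ± 39.7 CPM (0.29), each SD over 4 libraries. Ebf1 went the other way, at 105 to 180 CPM against 295 to 391 CPM, a log2 difference of -1.11 ± 0.110 (SE, edgeR adjusted p = 1.69e-08). Isl1 (-0.90) and Foxp1 (-0.53) were lower as well, and Bcl11b (0.15) and Rarb (-0.12) did not pass. In the D2 gate, the same markers set apart nuclei with Casz1 at 38.3 ± 5.87 against 19.2 ± 3.74 CPM and Tshz1 at 75.8 ± 16.3 against 44.9 ± 5.69 CPM, with no test made.

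**Figure D2:**
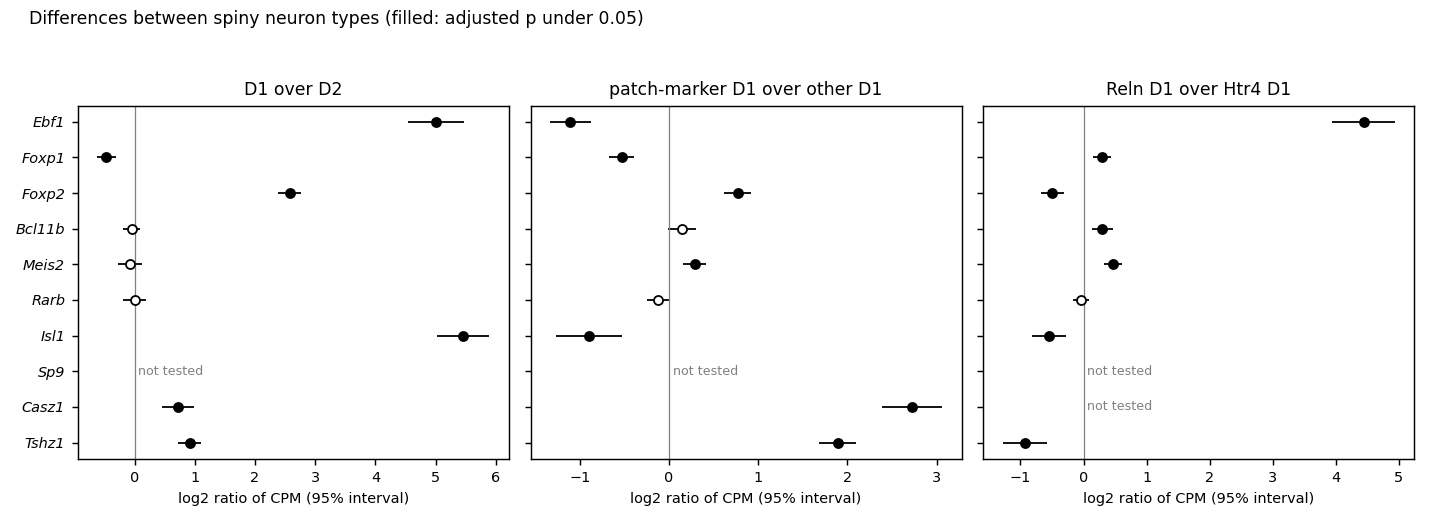
Log2 ratio of each factor between spiny neuron types, with 95% intervals, filled where the edgeR adjusted p was under 0.05. Between D1 and D2 the intervals of Bcl11b, Meis2 and Rarb include 0, while Casz1 and Tshz1 lead among patch-marker nuclei and Ebf1 leads in Reln against Htr4 nuclei.

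D1 nuclei past a cut on Reln and not Htr4 (530) and past a cut on Htr4 and not Reln (528) differed most in Ebf1. Reln nuclei held 503, 629, 632 and 534 CPM in saline female, saline male, cocaine female and cocaine male, and Htr4 nuclei 77.4, 21.6, 14.9 and 20.6 CPM. All Reln libraries were above all Htr4 libraries, with a log2 difference of 4.44 ± 0.237 (SE, edgeR adjusted p = 3.5e-11). At 4000 UMIs 75.7% ± 2.76 of Reln and 4.65% ± 4.45 of Htr4 nuclei had Ebf1 (SD, n = 4). Of the 8 factors tested here, 7 passed, 4 higher and 3 lower in Reln nuclei, where 13.6% of 9200 genes passed. Meis2 (0.46), Foxp1 (0.30) and Bcl11b (0.30) were also higher in Reln nuclei. Tshz1 (-0.93), Isl1 (-0.55) and Foxp2 (-0.50) were lower, and Rarb did not pass (-0.04). Casz1 was too low to test: 2 of 530 Reln nuclei had a UMI, against 46 of 528 Htr4 nuclei. With DESeq2 the calls of Bcl11b (adjusted p = 0.113) and Isl1 (adjusted p = 0.326) were lost; Bcl11b also lost its call without the saline male library (edgeR adjusted p = 0.115) or the cocaine female library (0.0501), and Isl1 without the cocaine male library (0.0628). The Htr4 gate held 54 nuclei in the saline female library and 130 to 183 in the others.

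Patch-marker nuclei could also pass the Reln or Htr4 cut. Of the 240 patch-marker nuclei, 52 were also Reln-positive, 39 Htr4-positive and 149 neither. Ebf1 was at 391 ± 72.3 CPM in the 52 and at 114 ± 63.6 CPM in the 149, and Casz1 at 10.7 ± 21.4 and 231 ± 43.2 CPM (SD, n = 4 libraries). Reln-positive patch-marker nuclei were thus closer to the other Reln nuclei (594 CPM Ebf1, 0.285 CPM Casz1) than to the rest of the patch-marker gate in both factors, without a test. D1 nuclei in none of the sub-gates (1042) had Ebf1 at 365 ± 20.3 and Casz1 at 38.4 ± 11.7 CPM.

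**Figure D3:**
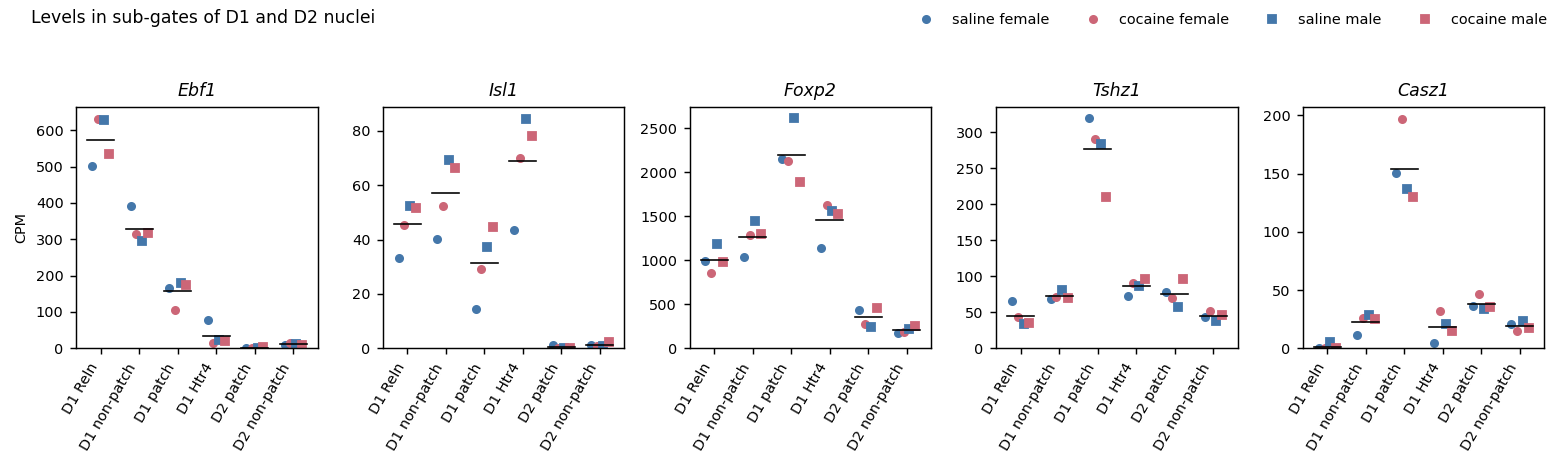
Levels (CPM) of 5 factors in sub-gates of D1 and D2 nuclei. Points are the 4 libraries and lines their mean. Ebf1 falls from Reln to Htr4 nuclei of D1, while Casz1 and Tshz1 are highest in patch-marker D1 nuclei.

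Ebf1 and Casz1 were seen almost entirely in different D1 nuclei. With all UMIs, 1080 D1 nuclei had Ebf1, 273 had Casz1 and 6 had both, where 128 would have both if the genes were independent within libraries. By library, 1 of 39, 3 of 90, 1 of 77 and 1 of 67 Casz1 nuclei also had Ebf1 (saline female, saline male, cocaine female, cocaine male), against 46.5% to 68.0% of nuclei without Casz1. Casz1 and Tshz1 did the reverse: 248 of the 273 Casz1 nuclei also had Tshz1, where independent genes would give 97.1. Thinned to 4000 UMIs, the Casz1 with Tshz1 overlap was 3.47 times the number from independence (3.13 to 3.79 over libraries). In the same thinning, Ebf1 with Tshz1 stood at 0.49 (0.32 to 0.63), Foxp1 with Casz1 at 0.65 (0.59 to 0.72) and Isl1 with Tshz1 at 0.73 (0.69 to 0.76). Ebf1 with Isl1, both D1 factors, stood at 1.03. These are descriptions, as nuclei of a library are not replicates.

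Foxp1 with Tshz1 was at 0.83 (0.77 to 0.87) and Foxp2 with Casz1 at 1.15 (1.11 to 1.18) in D1. Of the 35 D1 pairs with at least 5 expected nuclei in each library, 13 were above 1 and 6 below 1 in all 4 libraries. The 20 such D2 pairs ranged from 0.91 to 1.08. Pairs with Rarb or Meis2, detected in nearly every spiny nucleus, are held near 1 by that alone and say nothing of independence. Foxp1, Bcl11b, Meis2 and Rarb were all detected together in 70.4% of D1 and 75.8% of D2 nuclei at 4000 UMIs, against 13.5% of the Grm8 type and 3.25% of Sst nuclei. A D1 nucleus had a median of 6 of the 10 factors and a D2 nucleus 4.

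**Figure D4:**
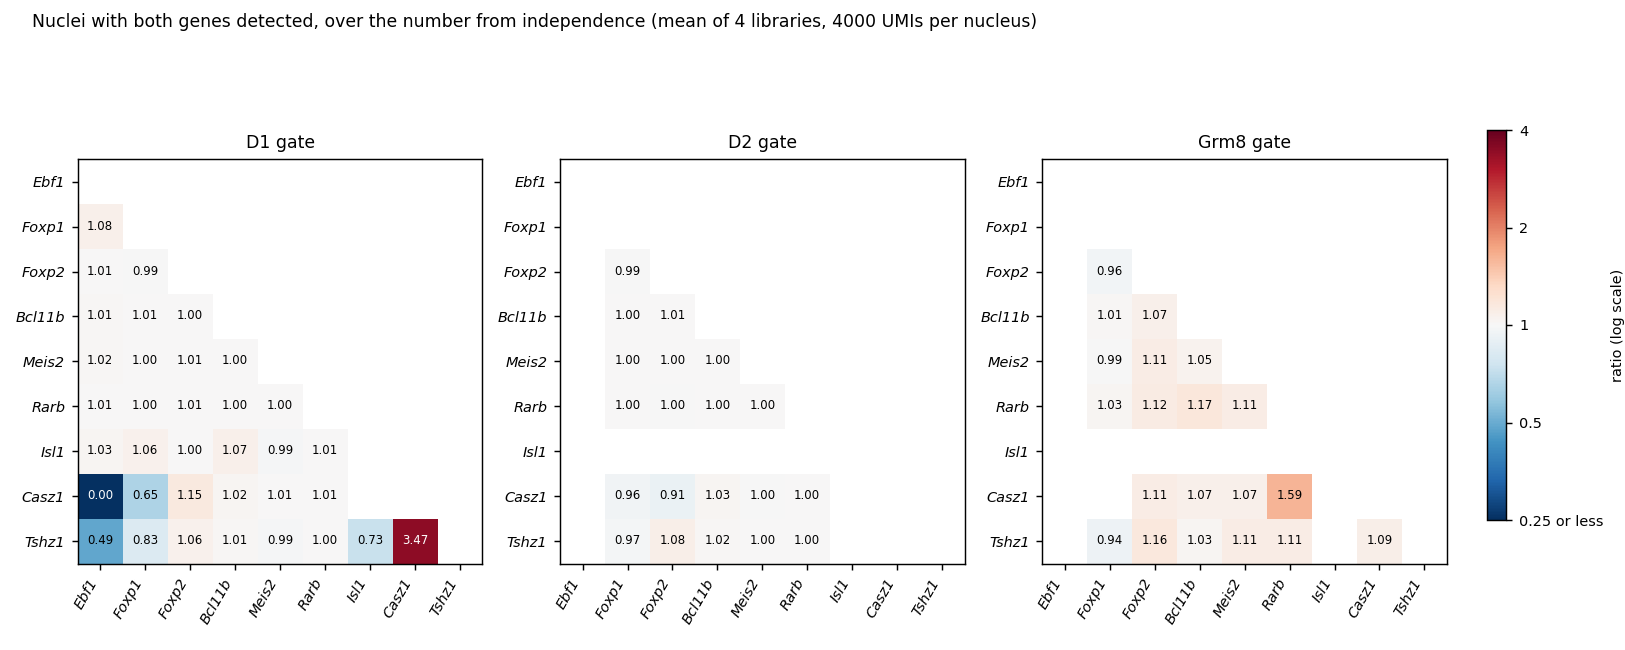
Number of nuclei with both genes detected over the number from independence (mean of 4 libraries, nuclei thinned to 4000 UMIs), for pairs with at least 5 expected nuclei in each library. Pairs with a gene detected in nearly every nucleus are held near 1. In D1 nuclei Ebf1 with Casz1 is at 0.00 and Casz1 with Tshz1 at 3.47.

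The Grm8 type had high Foxp2 and Tshz1, low Foxp1 and Rarb, and Ebf1 in 9 and Isl1 in 15 of 921 nuclei. High Foxp2 and Tshz1 were not particular to it. The 149 patch-marker D1 nuclei with neither Reln nor Htr4 had Foxp2 at 2635 ± 572 and Tshz1 at 368 ± 101 CPM. Their Foxp1 was at 645 ± 206 and their Rarb at 2207 ± 13.2 CPM (SD, n = 4 libraries). Each other type was compared with the mean of the log levels of D1 and D2. Of 9 factors, 8 passed in the Grm8 type, 3 higher and 5 lower, where 45.1% of 11266 genes passed, so that passing alone says little. Tshz1 was at 563, 566, 471 and 505 CPM (log2 difference 2.81 ± 0.0742, SE) and Foxp2 at 2621, 3325, 2745 and 3002 CPM (2.25 ± 0.0746), in the library order used for Rarb. Foxp1 was at 110 to 163 CPM (-3.64 ± 0.0875) and Rarb at 438 to 599 CPM (-2.31 ± 0.0954). Casz1 was higher (0.89), Bcl11b (-0.90) and Ebf1 (-2.51) were lower, and Meis2 was the factor that did not pass (0.20, edgeR adjusted p = 0.0607). Isl1 was lower (-1.05, edgeR adjusted p = 0.0368), a call lost without the cocaine female (0.109), saline male (0.0599) or cocaine male library (0.201) and with stricter gates (0.0522). Ebf1 and Isl1 were lower than D1 but not than D2. Isl1 was at 3.04 to 5.94 CPM in the Grm8 type, above 0.740 to 1.88 CPM in D2. Ebf1 was at 9.09 ± 11.8 CPM against 9.69 ± 2.23 CPM in D2 (SD, n = 4 libraries). Foxp2 was detected in 83.0% of Grm8 nuclei at 1000 UMIs and in 84.5% at 4000, while in D1 nuclei the share rose from 61.6% to 86.9%. When the gate was split by Chst9, a choice made after the values were seen, the 776 Chst9-positive nuclei had Foxp2 in 99.5% and Meis2 in 99.6%. In these, 0 of 776 had Ebf1 and 0 of 776 had Isl1. The 145 nuclei without a Chst9 UMI, at a higher median depth of 6836 against 4684.5 UMIs, had Foxp2 in 31.7% and Ebf1 in 6.21%.

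Sst/Npy interneurons had lower levels of the factors than spiny neurons, by amounts that varied from factor to factor. Sst/Npy nuclei had all 9 factors below the spiny mean at the threshold, where 39.1% of genes passed. For Ebf1 (0 to 24.4 CPM) and Isl1 (0 to 3.48 CPM) the Sst/Npy libraries overlapped those of D2, so these were apart from D1 only. Rarb nevertheless stood at 1430, 1356, 1284 and 1348 CPM in them (log2 difference -1.16 ± 0.0969, SE), and 84.8% ± 6.33 of these nuclei had it at 4000 UMIs. It was at 43.4 ± 11.7 CPM in Pthlh/Kit nuclei, a gate with 24 nuclei in its smallest library that was not tested. Foxp2 (6.44 CPM), Casz1 (1.44 CPM) and Meis2 (75.1 CPM) were low in Sst/Npy nuclei, with log2 differences of -6.53, -4.97 and -4.64. Of 164 Sst/Npy nuclei, Casz1 was seen in 1, Isl1 in 1, Ebf1 in 4, Tshz1 in 4 and Foxp2 in 6. These factors entered the test through their counts in other types. The sizes of their differences rest on counts near the floor. Bcl11b was present in both interneuron gates at 233 ± 29.2 and 241 ± 28.8 CPM, above 55.9 ± 35.8 CPM in cholinergic nuclei.

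Isl1 was highest in cholinergic neurons, where it is a known identity factor. It was at 281, 382, 279 and 521 CPM there, above the 37.5 to 66.1 CPM of D1 nuclei without overlap, and 61 of 73 nuclei (83.6%) had a UMI. No UMI of Ebf1 or Sp9 was seen in these 73 nuclei, which allows a share of nuclei with a UMI of up to 4.11% and does not limit the share that expresses either gene.

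Klhl1/Htr7 nuclei had Ebf1 in few nuclei but at high counts. Of 487 nuclei 30 (6.16%) had any Ebf1, with a median of 24 UMIs and a highest of 62, whereas the median of positive D1 nuclei was 4. The 23 nuclei with 10 or more Ebf1 UMIs came from all libraries (1 to 9 each) and held 3174 CPM when pooled, against 3.87 CPM in the other 464. Tshz1 was in 0 of the 23, Casz1 in 4.35% and Meis2 in 78.3%, against 20.7%, 16.6% and 31.5% of the others. That split was set after the values were seen. Of 9 factors, 8 passed in this type against the spiny mean, Ebf1 (1.41) and Isl1 (1.75) higher and 6 lower, where 55.6% of genes passed. That mean lies midway between the log levels of D1 and D2. Ebf1 averaged 180 CPM here, below D1 (312) and above D2 (9.69). Isl1 averaged 28.2 CPM, also below D1 (54.5) and above D2 (1.18). Foxp2, among the 6 lower, was likewise between D1 (1357) and D2 (227) at 307 CPM. Rarb had the most negative log2 difference (-4.32), at 155 ± 59.0 CPM. With DESeq2 the Ebf1 call was lost (adjusted p = 0.0809).

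Some factors were not confined to neurons. Foxp1 was at 392 ± 60.4, 515 ± 31.6, 221 ± 40.4 and 550 ± 100.3 CPM in astrocyte, oligodendrocyte, precursor and microglia gates, above its level in the Grm8 type. Meis2 was at 524 ± 26.2 CPM in astrocytes and 306 ± 30.1 CPM in precursors. Tshz1 was at 134 ± 19.5 CPM in oligodendrocyte precursors, above all D1 libraries, and Rarb at 121 ± 2.40 CPM in astrocytes. Ebf1 was present in precursors at 134, 53.9, 137 and 72.7 CPM (saline female, saline male, cocaine female, cocaine male). In precursors it was the 1 factor with a sex difference that passed, higher in the 2 female libraries by a log2 difference of 1.12 ± 0.200 (SE, edgeR adjusted p = 1.47e-05), where 0.499% of 8412 genes passed. DESeq2 did not call it (adjusted p = 1.00), and without the saline male library its adjusted p was 0.0813.

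Other genes of the same families and programme were given from 3 lists. Of 13 paralogs of the factors, 8 were tested between D1 and D2: Tshz2 (1.59), Meis1 (1.08) and Foxp4 (0.77) were higher in D1, and Ebf4 (-1.05) and Bcl11a (-0.26) were lower. Of 25 other striatal projection neuron factors, 20 were tested, 6 were higher in D1, led by Nr2f1 (2.00), Zeb2 (1.22), Pbx3 (0.82) and Dlx5 (0.64), and 3 were lower, led by Ikzf2 (-0.55). Of all genes tested between D1 and D2, 10.3% passed in either direction. The median log2 differences of the paralog and striatal lists were 0.33 and 0.24. The third list held 14 interneuron factors, of which 11 were tested. In Klhl1/Htr7 nuclei 10 of the 11 were higher than in spiny nuclei and none lower, where 55.6% of all genes passed in either direction, led by Lhx8 (7.44). In Sst/Npy nuclei 6 of 11 were higher and 1 lower, where 39.1% passed, led by Sox6 (8.58) and Lhx6 (8.31), 2 determinants of interneurons from the medial ganglionic eminence. Nr2f2 (5.32) led in the Grm8 type, where 3 of 11 were higher and 1 lower, a share below the 45.1% of all genes that passed.

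Genes whose pattern over the 8 neuron types was most like each factor were named by Pearson correlation of log2(CPM + 1) over 9105 genes. They were Capzb, Begain and Naf1 for Ebf1 (0.92 for the first), Sgk3, Cartpt and Zdhhc18 for Foxp1 (0.99), and Dnmt3a, Dnai4 and Otof for Foxp2 (0.94). Cfp, Gpr155 and Ddx31 followed Bcl11b (0.98), Otulinl, Ryr1 and Bbx Meis2 (0.97), and Cux1, Snx25 and Nup210 Rarb (0.94). For Isl1 they were Tmtc2, Irs2 and Ep300 (0.90), for Casz1 Cryga, Pigt and Gabra5 (0.97), and for Tshz1 Hacl1, Mdfic and Cert1 (0.94). Points share libraries, and 8 types are few for so many genes.

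No factor passed the test for cocaine against saline in any of the nucleus types tested. The log2 estimates in D1 and D2 lay between -0.36 and 0.30, with wide intervals for the scarce factors. In D1, 0 of 9 factors passed, where 0.289% of 12099 genes did, 33 of the 35 higher. In D2, 0 of 9 passed, where 0.776% of 12238 genes did. Counts at an unadjusted edgeR p under 0.05 were 0 of 9 in D1 and 1 of 9 in D2. Over all genes they were 978 of 12099 in D1 and 1104 of 12238 in D2, so counts this low say little of the factors. DESeq2 called no factor in either.

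In D1 nuclei the log2 changes ran from -0.16 (Tshz1) to 0.27 (Casz1). The intervals were narrowest for the abundant factors: Meis2 -0.03 (95% interval -0.17 to 0.12), Rarb -0.11 (-0.25 to 0.03), Foxp1 -0.09 (-0.26 to 0.08), Foxp2 0.01 (-0.20 to 0.22) and Bcl11b 0.12 (-0.05 to 0.29). Ebf1 was at -0.12 (-0.33 to 0.09) and Isl1 at 0.16 (-0.13 to 0.44). For 8 of the 9, changes over 0.5 on the log2 scale lay outside the interval. The exception was Casz1 (-0.11 to 0.66). The smallest edgeR adjusted p was 0.719. The 2 saline and 2 cocaine libraries did not overlap for 1 factor, Tshz1, where this was so for 34.9% of genes tested. The female and male pairs went the same way for 4 of 9 factors: for Ebf1 the log2 ratio was -0.31 in females and 0.09 in males.

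In D2 nuclei the changes ran from -0.36 (Casz1) to 0.30 (Ebf1, at 7.27 to 12.6 CPM). The widest intervals were those of Sp9 (0.23, 95% interval -0.80 to 1.27) and Ebf1 (-0.15 to 0.76). Casz1 was at 23.0 and 24.98 CPM in saline and 18.7 and 19.8 CPM in cocaine libraries, which did not overlap. Its log2 change of -0.36 ± 0.152 (SE; unadjusted p = 0.0187) did not pass (edgeR adjusted p = 0.396). Of 8 factors with at least 10 UMIs in each library, 3 (Foxp1, Casz1 and Tshz1) had groups apart, where 33.8% of genes were. Meis2 (-0.05, 95% interval -0.20 to 0.10), Rarb (-0.08, -0.24 to 0.07), Bcl11b (0.01, -0.15 to 0.16) and Foxp2 (0.08, -0.08 to 0.24) were again within 0.5.

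**Figure D5:**
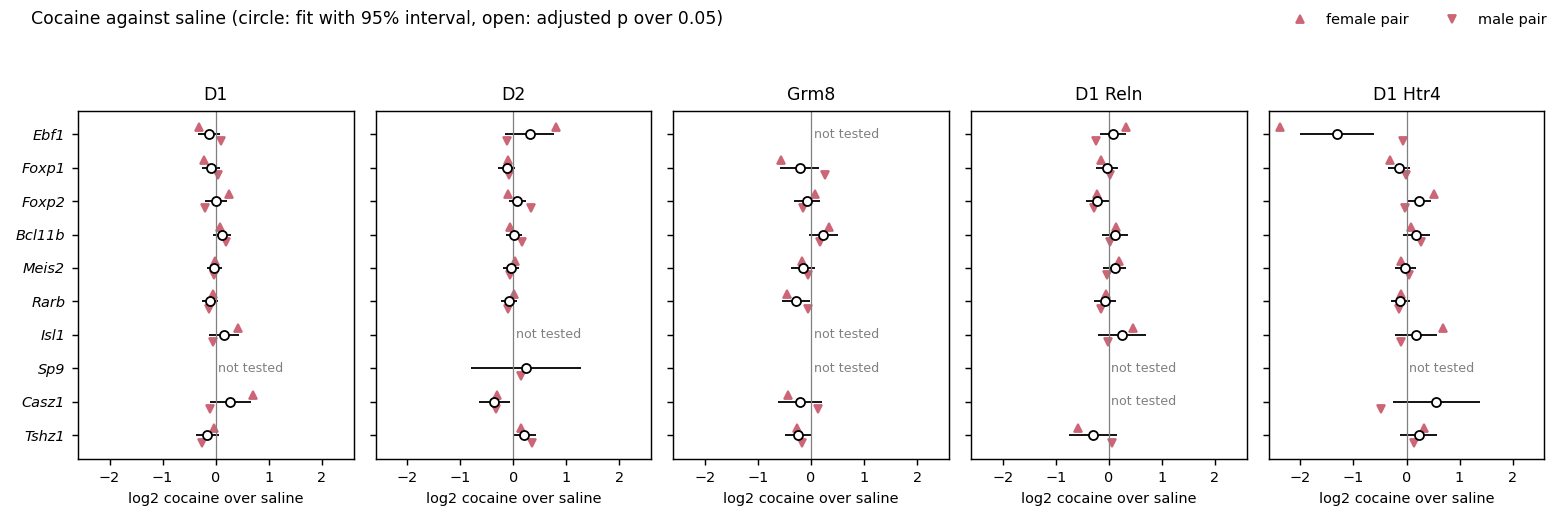
Log2 cocaine over saline for each factor in 5 nucleus types. Circles are the fit with its 95% interval (open: not past the threshold), triangles the female pair and inverted triangles the male pair of libraries. All circles are open, and in D1 and D2 most intervals lie within 0.5 of 0.

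The difference of the cocaine effect between D1 and D2 was tested itself, and no factor of 10 passed, where 0.119% of 12603 genes did. An unadjusted edgeR p under 0.05 was found for 3 of the 10 factors and for 873 of the 12603 genes. The estimates ran from -0.44 (Ebf1) to 3.94 (Sp9, which was seen in 4 D1 nuclei). Casz1 moved from 0.27 in D1 to -0.36 in D2, a difference of 0.63 ± 0.189 (SE; unadjusted p = 0.00254, edgeR adjusted p = 0.351). Tshz1 moved the other way, a difference of -0.36 ± 0.126 (unadjusted p = 0.00828, edgeR adjusted p = 0.442). Tshz1 was lower in both cocaine libraries of D1 (log2 ratios -0.03 and -0.26 in the female and male pairs) and higher in both of D2 (0.15 and 0.35). Without the cocaine male library the Casz1 difference passed, at 0.79 (edgeR adjusted p = 0.0483).

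In the D1 subtypes, Ebf1 in Htr4 nuclei had the largest estimate, -1.32 ± 0.342 (SE; unadjusted p = 0.000538, edgeR adjusted p = 0.221). It came from the female pair: 50 UMIs in 54 saline nuclei (77.4 CPM) against 24 in 161 cocaine nuclei (14.9 CPM). The male libraries were at 21.6 and 20.6 CPM, and without the saline female library the estimate was -0.31 (edgeR adjusted p = 0.993). In the saline female library 14.8% of Htr4 nuclei had Ebf1, against 2.48% to 4.62% in the others. Without the saline male library the call was made (-2.13, edgeR adjusted p = 1.17e-08), as it was with no filter on low counts (-1.30, 0.00610) and with doublets kept (-1.18, 0.00957). The median depth of the saline female Htr4 nuclei was 11410 UMIs against 8354 to 9718, and its part in the result was not tested. In Htr4 nuclei 0 of 9 factors passed (0.0915% of 9834 genes did), and in Reln nuclei 0 of 8, where 2.76% of 9026 genes passed. Ebf1 was at 0.08 (95% interval -0.16 to 0.33) in Reln nuclei.

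In the other types no factor was called either: 0 of 7 in Grm8 (0.00% of 9877 genes, 617 of them with an unadjusted p under 0.05), 0 of 4 in Sst/Npy (0.195%), 0 of 9 in Klhl1/Htr7 (0.0622%), 0 of 5 in astrocyte (0.00973%), 0 of 7 in oligodendrocyte (1.11%), 0 of 6 in precursor (0.0594%) and 0 of 1 in microglia nuclei (0.109%). The nearest in neurons was Rarb in Klhl1/Htr7 nuclei at -0.57 ± 0.175 (SE; unadjusted p = 0.00371, edgeR adjusted p = 0.438). In astrocytes Foxp2 was at 1.26 ± 0.317 (SE; unadjusted p = 0.00282, edgeR adjusted p = 0.445), where the projection marker list summed to 167 and 133 CPM in saline and 416 and 295 CPM in cocaine libraries. In oligodendrocyte nuclei Meis2 was at 0.55 (edgeR adjusted p = 0.0770) and Foxp2 at 0.82 (edgeR adjusted p = 0.111). The neuron marker list there summed to 121 and 94.1 CPM in saline and 149 and 142 CPM in cocaine libraries, and the projection marker list to 66.6 and 85.6 against 86.8 and 109 CPM. Both lists in oligodendrocyte nuclei and the projection list in astrocytes were higher in each cocaine library than in each saline library, and their part in these results was not tested. Without doublet removal 4 factors were called higher there (Foxp2, Bcl11b, Meis2 and Rarb), and with stricter gates 2 (Foxp2 and Rarb). Over all genes, 368 of 11742 were called with doublets kept and 115 of 10831 with stricter gates, against 121 of 10884.

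The 3 lists gave 1 call in each class under cocaine. Of the 4 interneuron factors tested in D1, Sox6 was higher (log2 change 2.03, edgeR adjusted p = 0.00845), and of the 3 in D2 it was lower (-1.96, edgeR adjusted p = 0.000198). Its D1 levels were 4.90 and 2.81 CPM in saline and 24.6 and 8.23 CPM in cocaine libraries (female, then male), and its D2 levels 11.5 and 2.96 against 3.11 and 0.683 CPM. Single nuclei held much of these sums: 1 nucleus had 31 of the 133 UMIs of the cocaine female D1 sum, and 1 had 41 of the 65 of the saline female D2 sum. No paralog (7 tested in each class) and no other striatal factor (19 in D1, 18 in D2) passed. Their median changes were 0.11 and 0.03 in D1 and -0.16 and 0.07 in D2, and all genes tested had 0.00.

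Sex was compared in the same fits. In D2, Foxp2 was the 1 of 9 factors that passed, lower in females by a log2 difference of -0.27 ± 0.0816 (SE, edgeR adjusted p = 0.0467), where 2.08% of genes passed. The female libraries were at 212 and 197 CPM and the male libraries at 222 and 278 CPM. This call was lost with DESeq2 (adjusted p = 1.00), with each library left out and with no filter on low counts, and it turned to 0.031 with stricter gates. In D1, 0 of 9 factors passed, where 0.116% of genes did. Isl1 was lowest in the 2 female libraries (37.5 and 50.2 CPM against 66.1 and 64.2 CPM), a log2 difference of -0.56 ± 0.130 (SE; unadjusted p = 0.00115, edgeR adjusted p = 0.244). It passed with no filter on low counts (edgeR adjusted p = 0.00221). In the other gates the count was 0 of 7 in Grm8 (0.101%), 0 of 4 in Sst/Npy (0.0974%), 0 of 9 in Klhl1/Htr7 (0.176%), 0 of 5 in astrocyte (0.136%), 0 of 7 in oligodendrocyte (5.40%), 0 of 1 in microglia (0.240%), 0 of 8 in D1 Reln (0.255%) and 0 of 9 in D1 Htr4 nuclei (0.132%).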

How the data were processed

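The deposited matrices hold raw UMI counts per gene and nucleus, made by the authors with Cell Ranger 6.1.2 (per the file headers) against build rn7 (per the submitters' processing notes). Barcodes below 200 genes or above 5% mitochondrial counts were dropped (4 in all), and the highest Scrublet scores were removed at 0.8% per 1000 nuclei. Total UMIs per library were 31484217 to 40737786. Gates used marker UMIs per 10000 and no factor. Counts were summed per library and gate (at least 25 nuclei in each library) and tested with edgeR 4.0.16 (quasi-likelihood, R 4.3.3), Benjamini-Hochberg adjusted over all genes tested at 0.05. Type contrasts carried library as a block, and cocaine contrasts sex as a covariate. Shares of nuclei were taken after thinning each nucleus to 1000 or 4000 UMIs, shallower nuclei left out. Promoter windows of 300 bases, 250 before to 50 after the start, came from RefSeq (GRCr8). Their coordinates are not those of the counted build.

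All 10 factors were taken into each comparison, though not each is named in every paragraph. The 3 genes most like each, except Sp9, and up to 4 called genes of each list were named as well. The factors, gates and lists were chosen with earlier results of these data known. Sp8 and Maf were not matched by symbol. The D1 against D2 result of the interneuron list and 1 gate marker's name are not reported here. Alternatives were DESeq2 1.42.0, no count filter, doublets kept, stricter gates, graph clusters (scanpy 1.11.5), no sex covariate and each library left out, the last without the sex covariate. Tests were tried on simulated counts first. Limits on a count of 0 cover counting error only. Intervals of differences came from the edgeR fits and rest on the same spread as the p-values of those fits.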

Additional observations from a re-analysis of the deposited data

How the results depend on the processing

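Of 522 alternatives for single factors that passed a test somewhere, 467 kept their side of the threshold, 22 lost the call and 29 gained one. Another 4 changed sign where the reported or the alternative fit made a call. A change of sign with no call in either fit was counted among the 467. Of 1191 alternatives of estimates past the threshold nowhere, 146 had the other sign. With graph clusters Casz1 (-3.30) and Tshz1 (-0.031) changed sign between D1 and D2. Foxp2 did so for females against males in D2 with stricter gates (0.031) and in oligodendrocytes with doublets kept (-0.53). Counts of factors called were within 1.5 times of the reported count in 205 of 237 alternatives. For cocaine, the count in oligodendrocytes rose from 0 to 4 with doublets kept and to 2 with stricter gates, in precursors to 1 with doublets kept, and in D1 Htr4 nuclei to 1 with no filter and to 1 with doublets kept. For sex, the count in D1 was 1 with no filter, and in D2 it was 0 with DESeq2, 0 with no filter, 0 with stricter gates and 2 with graph clusters. It was 1 in Klhl1/Htr7 with no filter, 2 in oligodendrocytes and 1 in microglia with doublets kept, and in precursors 0 with DESeq2 and 0 with doublets kept. With each library left out, counts for cocaine ranged from 0 to 1 in Grm8, 0 to 2 in Klhl1/Htr7, 0 to 1 in astrocytes, 0 to 3 in D1 Htr4 and 0 to 1 for the difference between D1 and D2. Counts for sex ranged from 0 to 1 in D1, Grm8, astrocytes and precursors, 0 to 2 in Klhl1/Htr7 and D1 Htr4, and stayed at 0 in D2. At 2000 UMIs the Casz1 with Tshz1 ratio was 3.97, and by Spearman correlation 6 of the 27 most alike genes were shared. The cause was not tested.

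Counts over all genes moved more. D1 against D2 called 1161 genes, 2272 with graph clusters, 639 with stricter gates and 761 without the cocaine male library. Patch-marker nuclei gave 807, 443 with DESeq2 and 493 without the cocaine female library, and Reln against Htr4 1252, 630 with DESeq2 and 790 without the cocaine male library. Cocaine called 35 genes in D1, with DESeq2 8, no filter 150, graph clusters 7, no sex covariate 5, and 0 to 140 with a library left out. In D2 it called 95, with DESeq2 3, stricter gates 22, no sex covariate 2, and 25 to 185. D1 Reln nuclei gave 249, with DESeq2 30, doublets kept 106, no sex covariate 78, and 68 to 212 with a library left out. The difference between D1 and D2 gave 15, with DESeq2 2, no filter 70, stricter gates 0, and 20 to 92. With a library left out, cocaine counts in Grm8 went from 0 to between 0 and 84, in astrocytes from 1 to between 3 and 57, and in oligodendrocytes from 121 to between 0 and 101. The shares of all genes printed beside the factors' counts move with them.

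The cocaine fits carried sex, which pairs the 1 saline and 1 cocaine library of each sex. A block by replicate number was not fitted, as the labels number no replicates. Stricter gates left too few nuclei to fit Sst/Npy, Klhl1/Htr7 and the D1 sub-gates. With 2 pooled libraries per treatment, only differences large against the spread between pools could pass, and Sp9 and Casz1 were near the depth limit in most gates.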

Other observations

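A split of D1 nuclei by Otof, made after the marker values were seen, set apart 56 nuclei, at least 9 in each library. In these Casz1 was at 236 ± 111 CPM, Tshz1 at 259 ± 102 CPM and Foxp2 at 2526 ± 131 CPM, while Ebf1 was at 21.7 ± 28.0 CPM (SD, n = 4 libraries). In the other 2193 D1 nuclei these 4 factors stood at 31.7, 89.6, 1334 and 318 CPM. Patch-marker D1 nuclei differed from other D1 nuclei in the same directions for these factors, and the overlap of both sets of nuclei was not counted. No test was made.

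In the Grm8 gate, Rarb and Casz1 were detected in the same nuclei more often than independence gives, at a ratio of 1.59 (1.46 to 1.86 over libraries, nuclei thinned to 4000 UMIs). The median of the 20 pairs measured there was 1.08.

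Rarb was lower in females than in males in the D1, D2, Grm8 and Klhl1/Htr7 gates, by log2 differences of -0.16, -0.16, -0.21 and -0.78. In the Sst/Npy and precursor gates the difference was 0.03 and 0.21. None of the first 4 passed (edgeR adjusted p = 0.453, 0.327, 0.831 and 0.0790), and in the Klhl1/Htr7 gate the call was made with no filter on low counts.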
